A study of Mus musculus with 6 samples.

Results

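Expression of 8 S100 genes was described in liver tissue outside the tumours of mice on a carbohydrate-restricted or a control diet. The genes are S100a1, S100a4, S100a6, S100a8, S100a9, S100a10, S100a11 and S100a13, and they were measured by every array probe that is not a control and carries one of these gene names. That gave 8 of the 31896 gene names and 10 of the 39429 probes of the array. The restricted group held 3 male C57BL/6 mice on a moderately restricted carbohydrate diet, which the series title describes as MCDmp, with plant compounds meant to mimic calorie restriction. The control group held 3 male C57BL/6 mice on a control diet from LabDiet. The sample titles call the diets of both groups supplemented, controls included, and do not name the supplement. Both groups began at 5 weeks of age, and all 6 mice, controls included, received the HrasG12V / shp53 / GFP4 transposon vector by hydrodynamic injection into the tail vein, which carries DNA into liver cells and here induces liver cancer. The sample labels give 1 week of feeding before the injection and 5 weeks of diet, whereas the series description has 2 weeks followed by 4 weeks. The promoter of the vector and the share of cells in the sampled region that carry it are not given in the labels.

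S100 proteins are small calcium binders of the EF-hand class that usually work as dimers: calcium opens a surface with which they grip partner proteins. S100a8 and S100a9 form calprotectin, one of the most abundant proteins in the cytosol of neutrophils and also made by monocytes, and outside cells it signals through Toll-like receptor 4 and the receptor Rage. The others act mainly inside cells. S100a4 binds non-muscle myosin and is known from fibroblasts and motile leukocytes, S100a6 and S100a11 bind annexins, S100a10 holds annexin A2 at membranes without binding calcium itself, S100a1 regulates the calcium pump of muscle, and S100a13 takes part in the release of fibroblast growth factor 1.

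Sets of letters show what was measured and where the genes start. The first is the promoter window of S100a8, S100a9 and S100a4, the genes whose signals the results turn on, from 250 bases before to 20 bases after the start that RefSeq gives on GRCm38.p6. Capitals mark matches to 3 searched motifs, a TATA box (TATAAA), a core bound by C/EBP factors (TTNCNNAA) and a core bound by PU.1 (GAGGAAG), each searched on both strands.
S100a8, chr3:90668821-90669090, plus strand: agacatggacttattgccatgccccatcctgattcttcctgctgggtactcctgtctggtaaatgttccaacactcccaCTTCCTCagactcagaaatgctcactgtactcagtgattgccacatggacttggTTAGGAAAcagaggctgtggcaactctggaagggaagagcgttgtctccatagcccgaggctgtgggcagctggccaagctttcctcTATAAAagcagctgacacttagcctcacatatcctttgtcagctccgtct
S100a9, chr3:90695702-90695971, minus strand: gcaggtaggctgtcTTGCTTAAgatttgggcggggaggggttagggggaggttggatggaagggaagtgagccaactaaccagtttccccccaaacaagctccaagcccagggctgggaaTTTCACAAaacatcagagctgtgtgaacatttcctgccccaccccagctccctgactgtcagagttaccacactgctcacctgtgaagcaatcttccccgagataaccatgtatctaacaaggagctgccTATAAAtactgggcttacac
S100a4, chr3:90603520-90603789, plus strand: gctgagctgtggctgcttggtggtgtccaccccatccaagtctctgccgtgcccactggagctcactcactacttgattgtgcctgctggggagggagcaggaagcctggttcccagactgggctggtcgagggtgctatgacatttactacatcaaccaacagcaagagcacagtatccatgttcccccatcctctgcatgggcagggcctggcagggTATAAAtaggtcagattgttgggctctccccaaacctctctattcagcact
The TATA box starts at position -30 from the start of S100a8, at -31 from that of S100a4 and at 0 in S100a9, where the annotated start is the first letter of the match itself. The C/EBP core lies at -117 in S100a8, read on the opposite strand, and at -236 and -130 in S100a9. The PU.1 core lies at -171 in S100a8, also on the opposite strand. No match overlaps another motif. Of 32851 windows of 270 bases, 12.9% hold the TATA box, 38.5% the C/EBP core and 11.6% the PU.1 core, so these matches are common and are given as letters only. Of the 8 genes 7 had a window, and S100a10 is named only. The AP-1 motif TGANTCA, held by 7.23% of windows, was found in S100a11 at -136 and -38 and in none of the other 6 windows.

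The second set is the stretch between the starts of S100a1 and S100a13, which RefSeq places head to head, 105 bases apart on GRCm38.p6. The 104 bases between them have a GC content of 58.7% and hold no capitals, since no motif was marked in them.
S100a1 and S100a13, chr3:90514331-90514434: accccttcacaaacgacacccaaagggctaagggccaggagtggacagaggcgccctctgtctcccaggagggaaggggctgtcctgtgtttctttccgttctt

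The third set is 4 of the array probes themselves, each 60 bases, with positions on mm9 as the files give them. Capitals mark the letters TTCNAGGAG, which in these probes encode the end of the calcium-binding loop near the protein's end. The letters were chosen after the probes were seen. They occur in 4 of the 10 probes of the 8 genes and, on either strand, in 0.271% of all 39429 probes.
S100a1, chr3:90315191-90315250, minus strand: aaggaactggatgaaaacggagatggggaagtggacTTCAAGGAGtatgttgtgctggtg
S100a4, chr3:90409734-90409793, plus strand: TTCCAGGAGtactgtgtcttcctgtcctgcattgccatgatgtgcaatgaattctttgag
S100a6, chr3:90418160-90418219, plus strand: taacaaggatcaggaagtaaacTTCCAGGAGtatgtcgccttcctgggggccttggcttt
S100a8, chr3:90473778-90473837, plus strand: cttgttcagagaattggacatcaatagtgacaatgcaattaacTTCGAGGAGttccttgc

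Each mouse gave 1 single-colour array, on 2 slides: slide 1 carried control mice 1, 2 and 3 together with restricted mouse 1, and slide 2 carried restricted mice 2 and 3. The signal at the 75th percentile was 287 to 574 over the arrays, and 23527 to 25816 of 39429 probes were well above background. Of 8 hepatocyte markers, 5 (Alb, Ttr, Cyp2e1, Ass1 and Serpina1a) saturated on all 6 arrays of the labelled liver tissue. Values below are the log2 signal minus the log2 of that array's 75th percentile signal, so 0 is the 75th percentile of the array, and a difference is restricted minus control, with its standard error and 95% interval from limma. A feature is 1 gene name, read by its brightest probe, and it was called at an adjusted p under 0.05.

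All 8 genes passed the filter on dim probes and were well above background on all 6 arrays, none saturated. Of the 8, 5 were called lower in restricted mice (S100a4, S100a6, S100a8, S100a9, S100a11), 2 were called higher (S100a1, S100a13) and S100a10 was not called. Over all 19616 features tested 27.5% were called, 12.8% lower and 14.6% higher. The mice of the diets did not overlap in 7 of the 8 genes, against 44.8% of all features. The genes were chosen from among S100 genes with the differences between these diets known, so the counts and differences of these 8 genes are a description and nothing is read from their share. The median difference was -3.33 over the 8 genes and 0.12 over all features. The RNA comes from whole tissue, in which fewer cells of a type and less RNA per cell cannot be told apart.

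**Figure D1:**
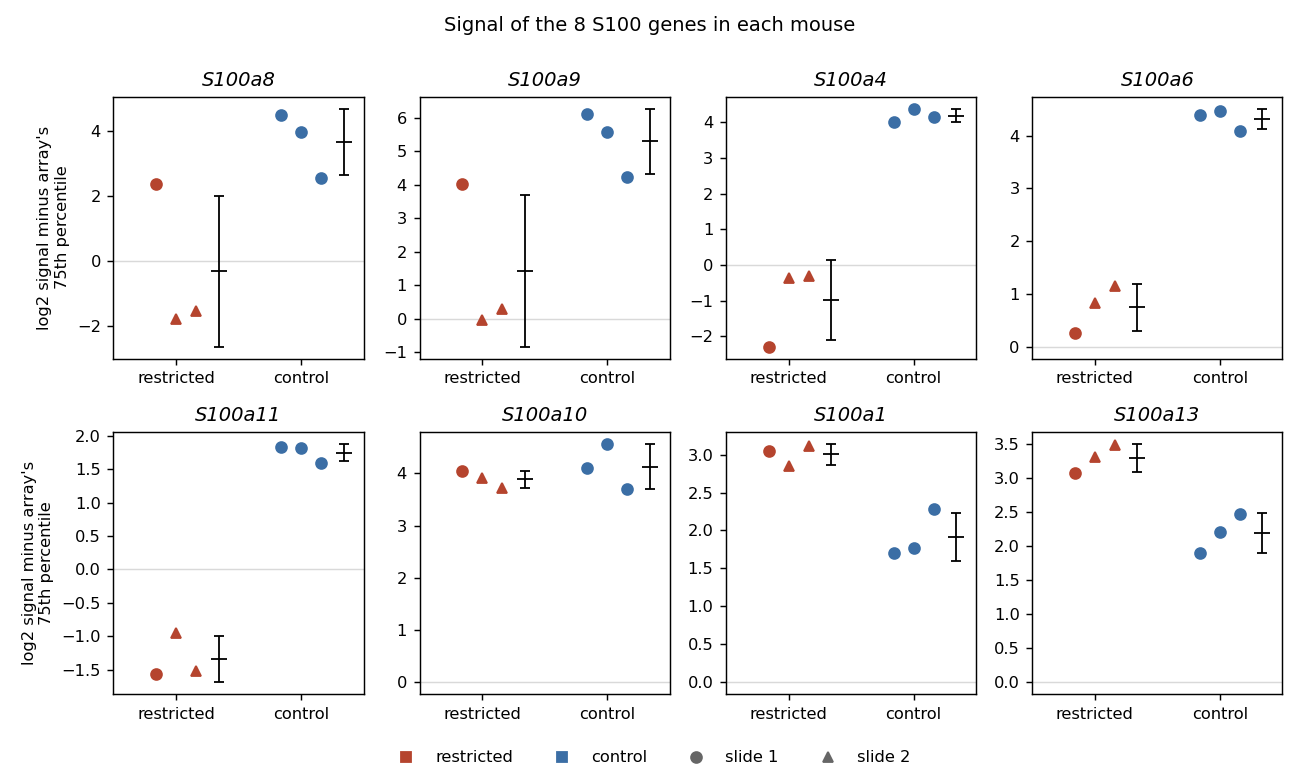
Log2 signal minus the array's 75th percentile for each S100 gene (y axis) in each restricted and control mouse (points, shape by slide), with the mean and SD of each diet beside them (n = 3). S100a4, S100a6 and S100a11 are low in all 3 restricted mice, whereas S100a8 and S100a9 in restricted mouse 1 (2.36 and 4.03) lie just under control mouse 3 (2.54 and 4.23).

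S100a8 and S100a9, the calprotectin genes, were lower in restricted mice on average, but the size of the difference varied widely between these mice. S100a8 (probe at chr3:90473778-90473837, mm9) had 2.36, -1.77 and -1.52 in restricted mice 1, 2 and 3, against 4.49, 3.97 and 2.54 in control mice 1, 2 and 3. S100a9 (chr3:90496573-90496632, minus strand) had 4.03, -0.03 and 0.28 in restricted mice, against 6.13, 5.57 and 4.23 in control mice. Restricted mouse 1 stood close to control mouse 3 for both genes, and restricted mice 2 and 3 stood far below every other mouse. The difference was -3.98 ± 1.11 (SE, interval -6.59 to -1.36) for S100a8, with means of -0.31 ± 2.32 in restricted mice and 3.67 ± 1.01 in control mice (SD, n = 3 each), a 15.7-fold lower signal. For S100a9 it was -3.88 ± 1.08 (interval -6.43 to -1.33), with means of 1.43 ± 2.26 in restricted mice and 5.31 ± 0.97 in control mice, 14.7-fold lower.

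The pair moved as 1 quantity. Expressed as a deviation from the mean of the control mice, S100a8 minus S100a9 was -0.03, -0.10 and -0.15 in restricted mice 1, 2 and 3, and 0.01, 0.04 and -0.05 in control mice. The deviation of S100a8 alone ran from -5.43 in restricted mouse 2 to 0.83 in control mouse 1, and that of S100a9 from -5.34 to 0.82 in the same mice. The gap between the genes thus stayed far smaller than the swing of either.

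Slide and diet overlap in this design, and among the 8 S100 genes the differences of the calprotectin pair moved most with slide. With slide as a block, which here rests on restricted mouse 1 against the 3 control mice of slide 1, the difference was -1.31 for S100a8 and -1.28 for S100a9, and neither was called. Restricted mice 2 and 3 differed from the control mice by -5.31 for S100a8 and -5.19 for S100a9, across slides. The calls of both genes were also lost on leaving out any 1 of control mice 1 and 2 and restricted mice 2 and 3, with differences between -3.82 and -3.15, and without the filter on dim probes, which tests more features. Slide 2 and restricted mice 2 and 3 cannot be told apart.

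**Figure D2:**
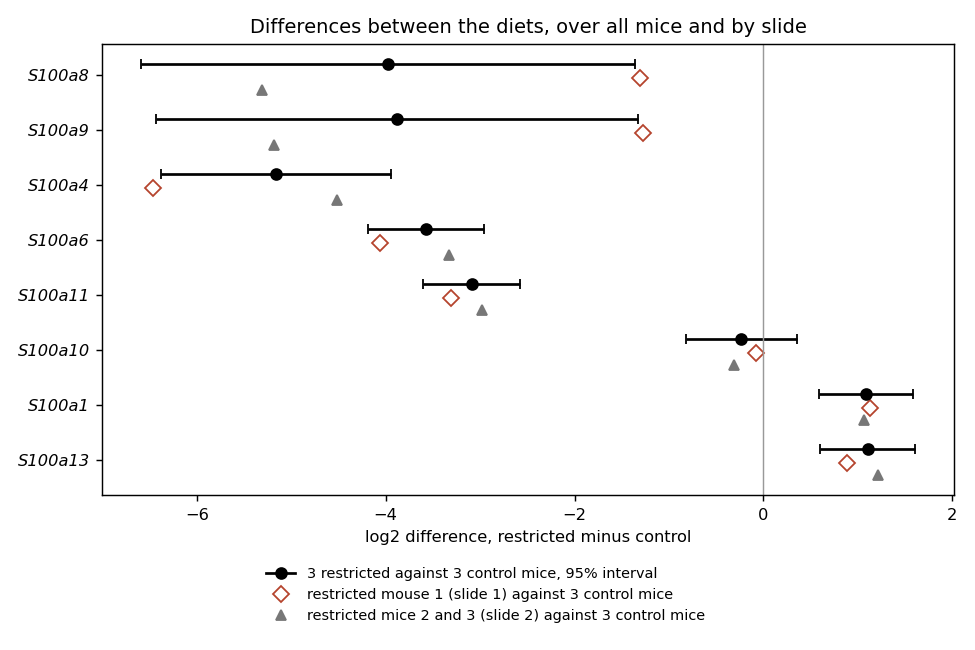
Log2 difference, restricted minus control (x axis), for each S100 gene: over all 6 mice with its 95% interval (black), for restricted mouse 1 on slide 1 alone (open diamonds), and for restricted mice 2 and 3 of slide 2 (triangles), each against the 3 control mice. S100a8 and S100a9 lie near -1.3 on slide 1 and below -5 on slide 2, while S100a4 lies at -6.46 on slide 1 and -4.52 on slide 2.

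S100a4, S100a6 and S100a11, which bind myosin and annexins inside cells, were lower in every restricted mouse than in every control mouse by a wide margin, and their control mice agreed closely. S100a4 (chr3:90409908-90409967) had -2.28, -0.37 and -0.30 in restricted mice 1, 2 and 3, against 4.01, 4.38 and 4.15 in control mice. Its difference was -5.17 ± 0.52 (interval -6.39 to -3.94), or 35.9-fold lower, with means of -0.99 ± 1.12 in restricted mice and 4.18 ± 0.19 in control mice. The lowest of the 6 values was that of restricted mouse 1, the mouse in which S100a8 and S100a9 were highest among the restricted. A second S100a4 probe had -1.32, -0.38 and -0.35 in restricted mice, against 3.37, 3.70 and 3.23 in control mice, a difference of -4.12 ± 0.30 and 17.3-fold lower, so the probes ordered the diets alike and gave different sizes.

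S100a6 (calcyclin, chr3:90418160-90418219) had 0.26, 0.83 and 1.14 in restricted mice, against 4.39, 4.47 and 4.10 in control mice. The difference was -3.58 ± 0.26 (interval -4.19 to -2.96), 11.9-fold lower, with means of 0.74 ± 0.45 in restricted mice and 4.32 ± 0.20 in control mice. Restricted mouse 1 was again the lowest. S100a11 (chr3:93330022-93330081), a partner of annexin A1, had -1.56, -0.95 and -1.51 in restricted mice, against 1.83, 1.82 and 1.60 in control mice. The difference was -3.09 ± 0.22 (interval -3.60 to -2.58), 8.52-fold lower, with means of -1.34 ± 0.34 in restricted mice and 1.75 ± 0.13 in control mice. Within slide 1 the differences of these genes were no smaller than over all mice: -6.46 for S100a4, -4.06 for S100a6 and -3.31 for S100a11.

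S100a10 (p11, chr3:93368437-93368496), the annexin A2 partner, showed no difference beyond the spread between mice. It had 4.04, 3.91 and 3.72 in restricted mice, against 4.10, 4.56 and 3.70 in control mice, and the diets overlapped. The means were 3.89 ± 0.16 in restricted mice and 4.12 ± 0.43 in control mice, and the difference was -0.23 ± 0.25 with an interval of -0.82 to 0.35. The S100a11 probe lies 38.4 kb away on the same chromosome, and its difference lies outside that interval.

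S100a1 and S100a13, the head-to-head pair, were higher in restricted mice. S100a1 (chr3:90314959-90315018, minus strand) had 3.05, 2.85 and 3.11 in restricted mice, against 1.70, 1.77 and 2.28 in control mice. Its difference was 1.09 ± 0.21 (interval 0.59 to 1.59), 2.12-fold higher, with means of 3.00 ± 0.14 in restricted mice and 1.92 ± 0.32 in control mice. A second S100a1 probe, whose letters are printed above, had 2.78, 2.66 and 2.83 in restricted mice, against 1.35, 1.32 and 1.49 in control mice, a difference of 1.37 ± 0.16. S100a13 (chr3:90328442-90328501) had 3.08, 3.31 and 3.49 in restricted mice, against 1.89, 2.20 and 2.47 in control mice. Its difference was 1.10 ± 0.21 (interval 0.60 to 1.61), 2.15-fold higher, with means of 3.29 ± 0.21 in restricted mice and 2.19 ± 0.29 in control mice. Every restricted mouse stood above every control mouse for both genes. With slide as a block the differences were 1.13 for S100a1 and 0.89 for S100a13, and neither was called.

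Set side by side mouse by mouse, the calprotectin pair and the other genes did not rank the restricted mice alike. Relative to the control mean, S100a8 and S100a9 together averaged -1.29, -5.39 and -5.11 in restricted mice 1, 2 and 3, against 0.82, 0.28 and -1.10 in control mice. The mean of S100a4, S100a6 and S100a11 was -4.61, -3.58 and -3.64 in restricted mice, against -0.0042, 0.14 and -0.14 in control mice. Restricted mouse 1 was thus the least lowered for the pair and the most lowered for these 3 genes. The mean of S100a1 and S100a13 was 1.01, 1.03 and 1.25 in restricted mice, against -0.25, -0.07 and 0.32 in control mice, and varied little with the mouse.

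The mean of all 6 genes other than the pair was -1.98, -1.48 and -1.47 in restricted mice, against -0.09, 0.12 and -0.03 in control mice. The pair minus these 6 genes was 0.69, -3.90 and -3.64 in restricted mice, against 0.91, 0.16 and -1.07 in control mice. Over all mice this amounts to -2.28, but restricted mouse 1 lay inside the range of the control mice and restricted mice 2 and 3 below it. Within slide 1 the sign was the opposite, at 0.69, and the mice of slide 2 gave -3.77. The mean of the 6 genes mixes falls with the rises of S100a1 and S100a13. The pair minus S100a4, S100a6 and S100a11 alone was 3.32, -1.81 and -1.47 in restricted mice, against 0.83, 0.14 and -0.97 in control mice. Over all mice that was 0.02, so the pair fell on average about as much as these 3 genes. The rule that chose the genes sets the pair against the others, so no test is given for these contrasts.

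**Figure D3:**
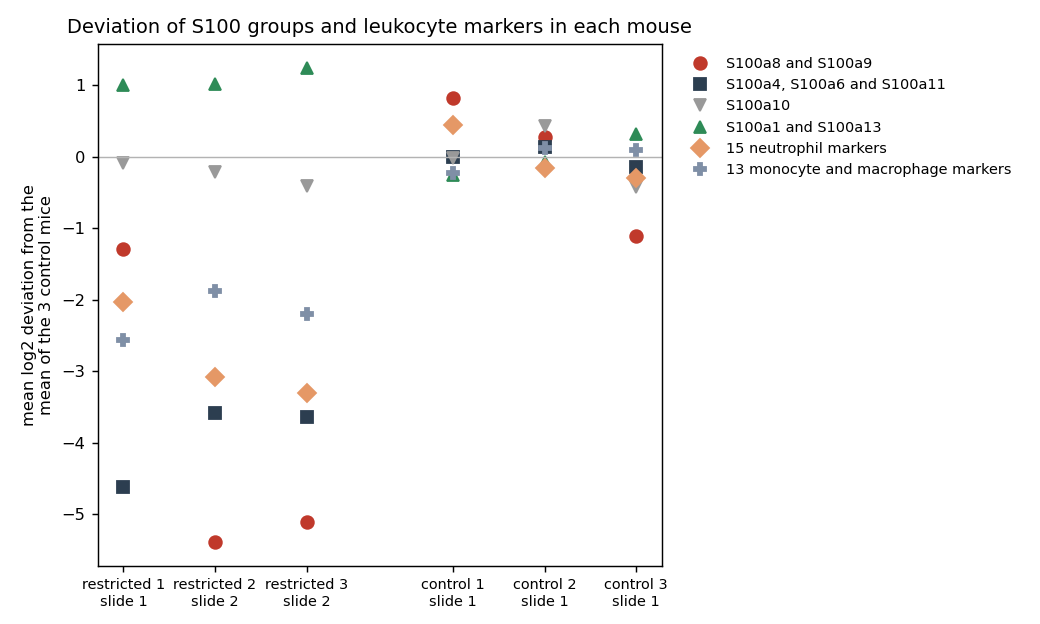
Mean log2 deviation from the mean of the 3 control mice (y axis) in each of the 6 mice (x axis, with its slide) for groups of S100 genes and for 2 lists of leukocyte markers. Restricted mouse 1 has the smallest drop of the 3 restricted mice for S100a8 and S100a9 (-1.29) and the largest for S100a4, S100a6 and S100a11 (-4.61).

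Most neutrophil, monocyte and macrophage markers fell, as 5 of the 8 S100 genes did, and their part in the result was not tested. Of 17 neutrophil markers 15 were measured, and their mean deviation was -2.02, -3.07 and -3.30 in restricted mice 1, 2 and 3, against 0.45, -0.16 and -0.29 in control mice. By limma with Benjamini-Hochberg adjustment over all features, 9 of the 15 fell and 1 rose, with a median of -3.13. The share called was 66.7%, beside 27.5% of all features and 84.6% of the monocyte and macrophage list. Of 14 monocyte and macrophage markers 13 were measured, 11 fell and none rose, with a median of -2.22 and a mean deviation of -2.56, -1.87 and -2.20 in restricted mice, against -0.22, 0.12 and 0.10 in control mice. The neutrophil list was thus least lowered in restricted mouse 1 and the macrophage list most lowered there.

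The neutrophil genes themselves fell into differing patterns over the mice. Among those the naming rule gives, Ngp, a granule protein, had -4.27, -7.01 and -6.37 in restricted mice, against 0.62, -0.85 and -1.45 in control mice, a difference of -5.32 (adjusted p = 0.00351, limma, lower in all 3), and of the restricted mice only mouse 1 had it well above background. Camp, the cathelicidin precursor, had -2.12, -1.86 and -2.27 in restricted mice, against 2.37, 1.37 and 0.73 in control mice, a difference of -3.57 (adjusted p = 0.00118). Ltf, lactoferrin, was not well above background in any restricted mouse and was at least 26.4-fold lower (adjusted p = 0.000822). With normexp background correction the difference was -2.20 for Ngp and -2.44 for Ltf, and both were still called. Ngp, Camp and Ltf were low in all 3 restricted mice, mouse 1 included. Elane, neutrophil elastase, went the other way, with 1.79, 1.45 and 1.63 in restricted mice, against 0.81, 0.88 and 1.16 in control mice, a difference of 0.67 (adjusted p = 0.035) that was not called with slide as a block, with no background filter or on leaving out any mouse but control mouse 3.

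The other neutrophil genes described here were named after their values were seen, and they differed among themselves. Retnlg, a resistin-like protein of neutrophils, had 0.55, -4.50 and -4.65 in restricted mice, against 1.67, 1.04 and -0.86 in control mice. Mmp8, neutrophil collagenase, had -2.07, -6.50 and -6.32 in restricted mice, against -1.88, -2.69 and -3.53 in control mice. Restricted mouse 1 lay inside the control range for both genes, and their differences of -3.48 (adjusted p = 0.113) and -2.26 (adjusted p = 0.192) were not called. Cxcr2, a chemokine receptor of neutrophils, had -3.15, -5.95 and -7.12 in restricted mice, against -2.35, -2.84 and -2.92 in control mice, a difference of -2.70 (adjusted p = 0.0669) that was not called either. Mpo and Prtn3, granule enzymes of neutrophils, were low in all 3 restricted mice. Mpo had -5.98, -4.85 and -4.49 in restricted mice, against 0.54, -1.39 and -0.31 in control mice. Prtn3 had -4.82, -5.02 and -4.85 in restricted mice, against 0.55, 0.13 and 0.17 in control mice. Of the restricted mice, only mouse 1 had Mmp8, Cxcr2 and Prtn3 well above background and only mouse 3 had Mpo, so the other restricted values of these genes lie at background. The remaining measured markers, Lcn2, Ncf1, Fpr1 and Ctsg, were called lower. Lcn2 had 5.49, 3.35 and 0.64 in restricted mice, against 6.77, 7.12 and 7.47 in control mice, where it was saturated. Ncf1 had -3.08, -2.45 and -2.62 in restricted mice, against 0.34, 0.33 and 0.58 in control mice. Fpr1 (-1.21) and Ctsg (-2.25) were likewise lower in every restricted mouse than in every control mouse. Ly6g, a surface marker of mouse neutrophils, had -1.04, -1.02 and -1.85 in restricted mice, against -1.82, -2.03 and -2.27 in control mice, a difference of 0.73 (adjusted p = 0.0899, limma) that was not called. Csf3r, the receptor of granulocyte colony-stimulating factor, had 6.53, 6.44 and 7.02 in restricted mice, against 6.29, 6.69 and 6.92 in control mice, and its difference of 0.03 was not called. These values lie near those of the saturated hepatocyte marker Alb (6.83 to 7.86). How much of the Csf3r signal comes from neutrophils was not tested.

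**Figure D4:**
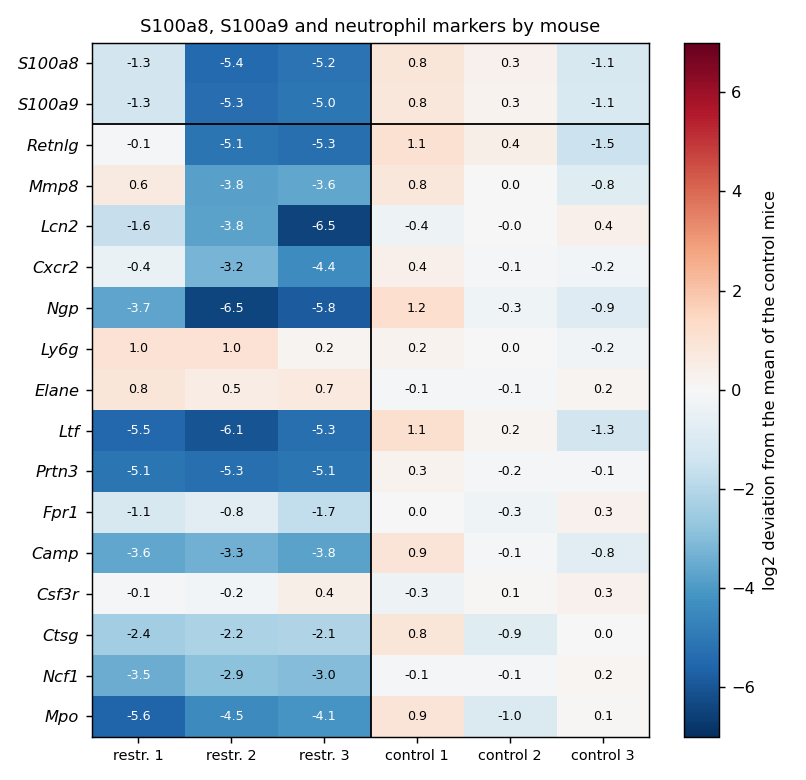
Log2 deviation from the mean of the control mice (colour and printed value) of S100a8, S100a9 and the 15 measured neutrophil markers (rows) in the 3 restricted and 3 control mice (columns), with markers ordered by how far restricted mouse 1 lies above restricted mice 2 and 3. Retnlg, Mmp8, Cxcr2, Lcn2 and Ngp lie well above restricted mice 2 and 3 in mouse 1, as does the S100 pair. Cxcr2, Lcn2, Ngp, Ltf, Prtn3, Camp, Mpo, Ncf1, Fpr1 and Ctsg are lower in every restricted mouse than in every control mouse, as is the S100 pair. Restricted values at background are those of Ltf in all 3 mice, Mpo in mice 1 and 2, and Ngp, Mmp8, Cxcr2 and Prtn3 in mice 2 and 3.

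Among the macrophage markers, Ccr2, the chemokine receptor of recruited monocytes, differed by -4.03 (adjusted p = 0.00212) and Marco, a scavenger receptor of resident macrophages, by -3.55 (adjusted p = 0.000626), each lower in all 3 restricted mice. With normexp background correction Ccr2 (-2.68) and the dendritic cell marker Cd209a (-2.45) were still called. Of 5 dendritic cell markers 3 fell, led by Itgax (-4.77) and Cd209a (-3.70). Of 9 stellate cell and fibroblast markers 6 fell (median -1.41), led by the collagen gene Col3a1 (-2.55) and the matrix gene Lum (-2.18), with 2 called without control mouse 2 and 3 without restricted mouse 2. Of 6 bile duct markers 3 fell, among them Spp1, or osteopontin (-2.33), and Krt7. Krt7 was not well above background in any restricted mouse and was at least 2.13-fold lower. The call of Krt7 was lost with normexp background correction (-0.12), with slide as a block, with quantile normalization, with no background filter and on leaving out any control mouse or restricted mouse 1. Of 7 endothelial markers 3 rose, led by Oit3 (2.08) and Lyve1 (1.97), genes of the liver sinusoid, of which Lyve1 was not called with no background filter or on leaving out any mouse but restricted mouse 3. The stellate list deviated by -2.37, -1.13 and -1.01 in restricted mice, against -0.06, 0.29 and -0.23 in control mice, with restricted mouse 1 lowest. Restricted mouse 1 was also the lowest restricted mouse for S100a4 and for the macrophage, dendritic cell, T and NK cell, B cell and bile duct means. This order is thus not particular to the stellate list. Of 5 T and NK cell markers 2 fell, Cd3d (-1.33) and Cd3g (-1.46), and neither was called with normexp background correction (-0.45 and -0.40), with no background filter or on leaving out any 1 of control mice 2 and 3 and the restricted mice. The call of Cd3d was also lost with quantile normalization. Beside 27.5% of all features, the shares called were 60% for dendritic cell and 66.7% for stellate cell and fibroblast markers. They were 50% for bile duct, 42.9% for endothelial and 40% for T and NK cell markers. By limma none of 3 B cell markers was called, among them Cd79b (-0.79) and Ms4a1 (-0.36), and at an unadjusted p under 0.05 the count was also 0. None of the 8 hepatocyte markers was called, among them Apoa1 (-0.61) and Cps1 (1.07), and 2 had an unadjusted p under 0.05. Alb, Ttr, Cyp2e1, Ass1 and Serpina1a were saturated on all 6 arrays, so for these 5 no difference could be read. The remaining marker, Tat, differed by 0.44.

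Ranked over 13876 features by Pearson's r over the 6 mice, as a description, the 5 features most like the mean of S100a8 and S100a9 were Tfe3 (r = 0.9994), Stfa2l1, Slfn4, Cstdc4 and Nop58 (r = 0.9928). Of these, Stfa2l1 and Cstdc4 belong to the stefin cluster of cysteine protease inhibitors, known from mouse neutrophils, and Slfn4 is a Schlafen gene of myeloid cells. Tfe3 and Nop58 differed far less between the diets, by -0.53 and -0.57, and neither was called. Stfa2l1 had -3.37, -7.13 and -7.13 in restricted mice, against -0.75, -1.78 and -3.15 in control mice. Restricted mouse 1 again lay by control mouse 3, and it alone of the restricted mice had Stfa2l1, Slfn4 and Cstdc4 well above background, so the values of the other 2 are at background. Of all ranked features 6 reached an r over 0.99 to the pair. Leaving out 1 mouse kept 1 to 4 of the 5 among the first 5.

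The features most like the mean of the other 6 genes were Lsp1, Cd52, Ezr, Dock11 and Cyba, with r from 0.9989 to 0.9991. That mean mixes the falls of S100a4, S100a6 and S100a11 with the rises of S100a1 and S100a13. Over the mice S100a1 and S100a13 ran against S100a4 (r = -0.919 and -0.859), so likeness to the mean is not likeness to each gene. Lsp1, an actin-binding protein of leukocytes, had -0.07, 0.94 and 1.19 in restricted mice, against 4.16, 4.54 and 4.35 in control mice. Cyba, a subunit of the phagocyte oxidase, had 1.34, 2.22 and 2.10 in restricted mice, against 4.74, 4.93 and 4.73 in control mice. Their r to the S100a8 and S100a9 mean was 0.6765 for Lsp1 and 0.6943 for Cyba. Of all ranked features 178 reached an r over 0.99 to the mean of the 6 genes, and with 1 mouse left out 0 to 2 of the 5 stayed among the first 5. The 6 mice fall into 2 diets in these features, so every such r holds the difference between the diets as well as the spread within them.

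The genes lie on chromosome 3, most of them close together, and neighbours differed in size and direction. The probes of S100a1, S100a13, S100a4, S100a6, S100a8 and S100a9 lie within 181.7 kb of chromosome 3, and those of S100a11 and S100a10 lie 2833.4 kb beyond S100a9. Within 8.3 kb, the S100a5 probe stands between those of S100a4 and S100a6. S100a5, a calcium binder known mainly from olfactory neurons, had -2.32, -2.63 and -2.47 in restricted mice, against -1.54, -1.91 and -1.52 in control mice, a difference of -0.82 ± 0.19 (adjusted p = 0.0196, limma) beside -5.17 and -3.58 in its neighbours. That call was lost with slide as a block, with normexp background correction, and without control mouse 1, restricted mouse 2 or restricted mouse 3. Of 3 genes without an S100 name within 100 kb of this group, Ilf2 (-0.12), Snapin (0.20) and Chtop (-0.26), none was called by limma, and none had an unadjusted p under 0.05. Near S100a10 and S100a11, Gm5278 was higher by 1.20 (adjusted p = 0.0215) and Tchh differed by -0.25, which was not called.

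**Figure D5:**
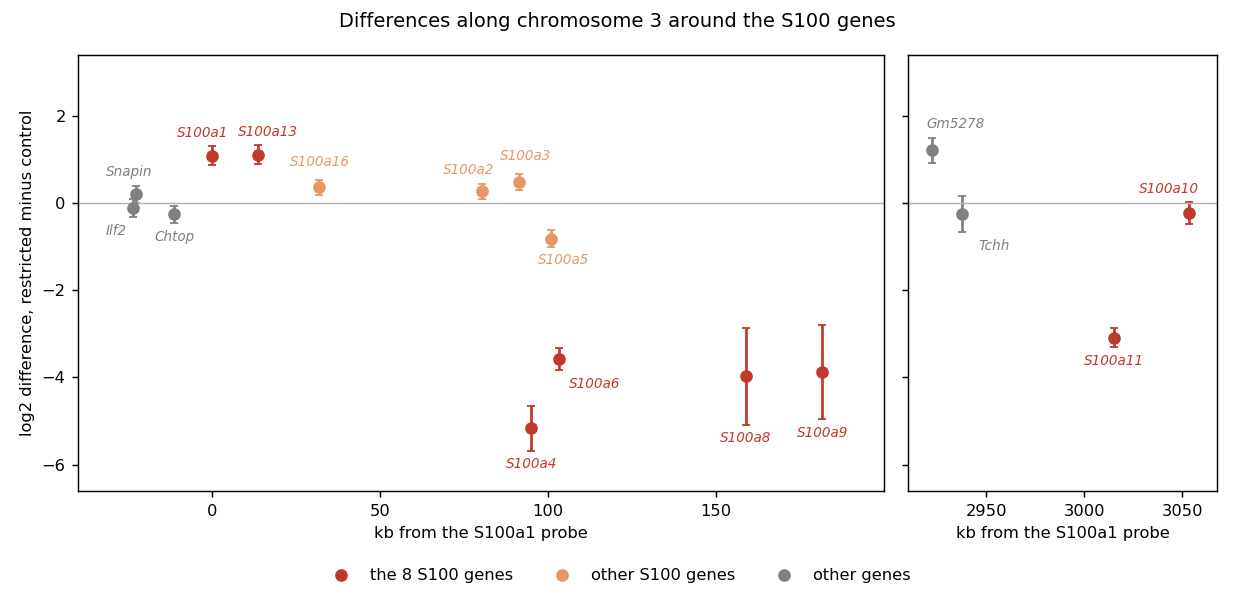
Log2 difference, restricted minus control, with its SE (y axis), against the distance in kb from the S100a1 probe on chromosome 3 (x axis, broken between the panels) for S100 genes and other measured genes within 100 kb. The large falls of S100a4, S100a6, S100a8, S100a9 and S100a11 stand among genes whose differences lie between -0.82 and 1.20.

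Of 10 other S100 genes, 9 were on the array, 5 were measured, 1 fell (S100a5) and none rose, with a median of 0.36. Thus 20% of those measured were called, beside 27.5% of all features. S100a3 had a difference of 0.48, S100a16 of 0.36 and S100a2 of 0.26, none called. The S100a16 value, which is also the list median, comes from its brighter probe. A second S100a16 probe had 1.32, 1.15 and 0.65 in restricted mice, against 1.26, 1.15 and 0.84 in control mice, so the diets overlapped there. S100g, an intestinal and renal calcium carrier, had 0.40, -3.64 and -3.29 in restricted mice, against -1.49, -3.09 and -5.42 in control mice, so mice of both diets were spread widely and overlapped, and its difference of 1.16 ± 1.31 was not called. S100a7a, S100a14, S100b and S100z were not well above background on all arrays of either diet. Of 7 fused S100 proteins of the epidermis, which carry an S100 domain on a long repeat protein, 4 were measured and none was called by limma, nor had any an unadjusted p under 0.05. The differences with the smallest p were 0.45 for Flg and 0.32 for Hrnr.

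Receptors and signalling genes of extracellular S100 proteins numbered 8, of which 7 were measured, 3 fell and 1 rose, with a median of -0.50. In this list 57.1% were called, beside 27.5% of all features. Tlr4, the receptor for calprotectin, had -4.27, -3.64 and -4.24 in restricted mice, against -2.33, -2.27 and -2.19 in control mice, a difference of -1.79 ± 0.22 (adjusted p = 0.00155) that was -0.58 and still called with normexp background correction. All 3 restricted mice lay below all 3 control mice. Cd14, its co-receptor, had -0.25, -0.84 and -1.53 in restricted mice, against 3.63, 3.70 and 1.16 in control mice, a difference of -3.70 ± 0.70 (adjusted p = 0.00914) that was not called with slide as a block (-3.08). Cd36, a scavenger receptor reported to bind calprotectin and also a fatty acid carrier of hepatocytes, rose, with 2.81, 2.77 and 2.25 in restricted mice, against 0.32, 0.25 and -0.89 in control mice, a difference of 2.72 ± 0.36 (adjusted p = 0.00215). Alcam, which binds S100b, fell by 1.12 on the log2 scale (adjusted p = 0.0127), a call lost with slide as a block. Ager, which encodes Rage, was not measured above background, and Ly96 (0.35), Myd88 (-0.50) and Bsg (0.03) were not called. With slide as a block 1 of the 7 fell and 1 rose.

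Of 12 binding partners inside cells 11 were measured, 3 fell and 1 rose, with a median of 0.12. The share called was 36.4%, beside 27.5% of all features. Anxa2, which pairs with S100a10, had 1.27, 1.84 and 1.80 in restricted mice, against 4.76, 4.74 and 4.02 in control mice, a difference of -2.87 ± 0.27 (adjusted p = 0.000685). The partner S100a10 itself differed by -0.23. Anxa1, which binds S100a11, had -0.38, 0.27 and 0.62 in restricted mice, against 2.85, 2.64 and 1.92 in control mice, a difference of -2.30 ± 0.34 (adjusted p = 0.00345). Myh9, the non-muscle myosin heavy chain that S100a4 binds, fell by 1.07 on the log2 scale (adjusted p = 0.00429). Anxa1, Anxa2 and Myh9 were lower in each restricted mouse than in each control mouse. Syt1, part of the release complex with S100a13, rose by 1.82 (adjusted p = 0.00477), with 1.27, 1.18 and 2.02 in restricted mice, against -0.61, -0.45 and 0.05 in control mice, a call lost with slide as a block. Fgf1, the cargo of that complex, differed by 0.50 and Cacybp, the calcyclin-binding protein, by 0.12, and neither was called.

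Of 21 other EF-hand genes, all measured, 3 fell (Efhd2 by 0.98, Lcp1 by 0.76 and Sri by 0.73 on the log2 scale) and none rose. The share called was 14.3%, beside 27.5% of all features, of which 12.8% were lower and 14.6% higher. The median was -0.18, with differences from -0.98 to 0.81. The calls of Efhd2 and Lcp1 were lost with median scaling, and that of Efhd2 also with no background filter. Lcp1, or L-plastin, bundles actin in leukocytes and Efhd2 is found in immune cells. With slide as a block none of the 21 was called and 2 had an unadjusted p under 0.05, and none was called on leaving out any 1 of control mice 1 and 2 and restricted mice 2 and 3, with 3 to 5 at an unadjusted p under 0.05. Alcam, Myh9 and Sri lie outside the naming rule and are given because the counts are small.

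Of 7 transcription factors known to act on S100a8 and S100a9 in myeloid cells, 2 rose and 2 fell, with a median of -0.57. The share called was 57.1%, beside 27.5% of all features. Spi1, which encodes PU.1, was not well above background in any restricted mouse and was at least 3.15-fold lower (adjusted p = 0.000928), a call lost with normexp background correction (-0.39). Cebpa, a factor of both myeloid precursors and hepatocytes, had 3.44, 3.61 and 3.06 in restricted mice, against 2.09, 1.31 and 1.91 in control mice, a difference of 1.60 ± 0.26 (adjusted p = 0.00511) that was called with slide as a block but not on slide 1 alone. Cebpe, a factor of late granulocyte maturation, had 2.10, 1.96 and 2.62 in restricted mice, against 0.58, 1.11 and 1.55 in control mice, a difference of 1.14 ± 0.30 (adjusted p = 0.03). Stat3 had 4.72, 4.13 and 4.00 in restricted mice, against 5.13, 4.96 and 5.22 in control mice, a difference of -0.82 ± 0.23 (adjusted p = 0.0377). The calls of Cebpe and Stat3 were lost with no background filter, with slide as a block and on leaving out any 1 of control mice 1 and 2 and restricted mice 2 and 3, that of Cebpe also without restricted mouse 1 and that of Stat3 also without control mouse 3 and with median scaling. Cebpb (-0.26), Cebpd (-1.24) and Hif1a (-0.57) were not called.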

How the data were processed

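RNA of non-tumour liver from 6 mice was hybridised to single-colour (Cy3) mouse arrays of design 026655, 1 array per mouse. The deposited intensity values are processed signals that, per the file headers, Agilent Feature Extraction 10.7.3.1 made, and the submitters' processing notes give 9.3.2.1 instead. Probe coordinates are on mm9, per the file headers. The deposited value table has the same linear signals, uncentred, since 99.67% to 99.77% of probes lie within 0.1% of the mean processed signal, with column medians of 27.5 to 52.1.

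Outlier spots (127 to 251 an array) were dropped from the 43020 that are not controls, the log2 signals of a probe's spots were averaged, and each array's 75th percentile was subtracted. A probe was kept if, in 1 diet or both, every array that measured it had it well above background (24234 of 39429, where a probe counts as such on an array when at least 0.5 of its spots do), and the brightest probe of each gene name gave 19616 features. Names were updated through RefSeq accessions where they matched (26055 probes, 3358 names changed). Diets were compared with limma 3.58.1 in R 4.3.3 (with data.table, version 1.17.8) with Benjamini-Hochberg adjustment over all features, called at adjusted p under 0.05. Mouse numbers were not taken as pairs. Deviations of same-numbered mice correlated at 0.384, -0.002 and 0.482, and those of differently numbered mice at -0.499 to 0.118. Whether the numbers pair mice is not settled by these values. On slide 1 alone the lone restricted mouse is taken to vary like the control mice.

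A gene dim on all arrays of a diet, or saturated on all, is given as a bound: the brighter mean against the mean, per array, of the dim probe's signal or, if higher, the dimmest signal that passed as well above background. The S100 genes and all lists were chosen with earlier results of these data known. The naming rule takes every S100 gene with all its probes, the 2 called members of each list with the largest difference in each direction (or the 2 with the smallest p where none was called), Tlr4, Ager, Anxa1, Anxa2, Ltf, Ngp and Camp, and the 5 features with an ordinary symbol most like each group. Promoter letters are RefSeq's on GRCm38.p6. Alternatives were other normalizations, background corrections and filters, the deposited table, other moderation, array weights, mouse number or slide as a block, slide 1 alone, every probe, other thresholds and leaving out each mouse. The labels do not say whether RNA was taken from more than 1 piece of a liver, and p-values measure the spread between these mice.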

Additional observations from a re-analysis of the deposited data

How the results depend on the processing

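Over 18 alternatives, S100a4, S100a6 and S100a11 were called lower in 18, with differences of -6.46 to -4.52, -4.06 to -3.33 and -3.31 to -2.64. S100a1 and S100a13 were called higher in 16, S100a8 and S100a9 lower in 11 and S100a10 in 0. Slide mattered most and cannot be separated from which restricted mice it holds. With slide as a block 3013 features and 3 of the 8 S100 genes were called, and on slide 1 alone 2423 features and again 3 genes; in both fits the differences were 1.13 for S100a1, -1.31 for S100a8, -1.28 for S100a9 and 0.89 for S100a13, none called. S100a8 and S100a9 minus the other 6 genes turned to 0.69 on slide 1. List counts in these fits were 0 for other S100 genes, 2 for receptors, 0 for EF-hand genes and, for transcription factors, 2 with the block and 1 on slide 1 alone. Without a background filter S100a8 (-3.98) and S100a9 (-3.88) were not called, 1 EF-hand gene was, and 2 transcription factors were. EF-hand counts were 6 with quantile normalization, 1 with median scaling, 7 with array weights and 6 with the replicate block, the only count here, cell type markers aside, that the mouse number as a block moved by over 1.5 times; 7 S100 genes were called with it too. Array weights called 2 other S100 genes and 1 fused gene, and normexp correction called 0 other S100 genes. At adjusted p under 0.01, 2533 features and 4 S100 genes were called. Of the 5 features most like S100a8 and S100a9, 2 were shared under quantile normalization, 3 under median scaling, 2 under normexp and 2 when every array had to be above background; of those most like the other genes, 3, 2 and 1 under the first 3 of these and 3 with every probe. Ms4a1 turned to 0.21 with normexp and ran from -0.92 to 0.23 with 1 mouse left out. Leaving out 1 mouse gave 3362 to 5887 features, 5 to 7 S100 genes, -5.31 to -3.25 for S100a8, -5.19 to -3.15 for S100a9, -3.77 to -1.47 for the pair minus the others, 0 to 1 other S100 genes, 0 to 1 fused genes, 0 to 6 EF-hand genes, 2 to 4 transcription factors, and 1 to 4 and 0 to 2 shared features for the pair and the others. The causes of these shifts were not tested. With 3 arrays per diet, differences as small as that of S100a10 are not resolved.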
